A study of Mus musculus with 6 samples.

Results

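Described here are 10 mouse genes grouped as Siglec and other inhibitory myeloid receptors: Siglece, Cd33, Siglecg, Siglech, Pirb, Lilrb4a, Sirpa, Cd300a, Cd300lf and Clec12a. Siglech, which signals through the adaptor Tyrobp, and Siglecg, best known on B cells, fit that name less well. All 10 were taken by name from a count table of 56748 genes and were found in it. The 10 were chosen by their fold changes and adjusted p-values in the comparison of Rbm5 KO with Rbm5 WT libraries, which is the only comparison of the series. Their differences between the groups are therefore given as a description, and nothing is read from how many of them passed the test.

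Bulk RNA sequencing was done on 3 libraries labelled Rbm5 KO (numbers 31, 32 and 40) and 3 labelled Rbm5 WT (numbers 25, 27 and 29). Both groups carried MLL-AF9, the fusion oncogene that transforms mouse myeloid progenitors into acute myeloid leukemia. RBM5 binds RNA and takes part in splicing, and the purpose stated for the series was to learn how it governs genes of MLL self-renewal. The labels name bone marrow as the source and describe the RNA both as coming from whole marrow and as coming from cells in culture. The sources used here give no strain, no age and no way of deleting Rbm5.

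Totals ran from 26359299 to 27638075 counts in KO libraries and from 27140474 to 31807588 in WT libraries. Rbm5 was not lower in the libraries labelled KO, at 269, 267 and 245 TMM-scaled CPM (counts scaled to a common library size), against 227, 214 and 174 CPM in WT libraries (edgeR log2 fold change 0.34, adjusted p = 0.107), so KO and WT stand here for the libraries so labelled. The Y-linked gene Ddx3y had 2645, 2674 and 3311 counts in KO libraries and 0 in each WT library, so sex and label cannot be told apart. Xist, the RNA of the inactive X, was at 13.0, 192 and 32.5 CPM in KO libraries, against 1625, 1363 and 1269 CPM in WT libraries. Every KO library thus held both Ddx3y and some Xist, with the most Xist in KO library 32. All 7 leukemia and progenitor markers were present in every library, but not all were level between the groups: edgeR called 2 higher and 1 lower. Ptprc was at 510.1 to 641 CPM in KO libraries and 354 to 386 CPM in WT libraries (log2 fold change 0.71, edgeR adjusted p = 0.0143). Itgam was at 202 to 320 CPM in KO libraries and 120 to 135 CPM in WT libraries (1.03, adjusted p = 0.0127). Hoxa9 was at 92.8 to 120.2 CPM in KO libraries and 184 to 359.6 CPM in WT libraries (-1.20, adjusted p = 0.0375). Hoxa9 lies on chromosome 6 and was 0.43 higher on the log2 scale in WT libraries 27 and 29 than in the other 4 libraries. Its highest value was in WT library 25. Summed markers of mature neutrophils were 8548 to 15495 CPM in KO libraries, against 608 to 2253 CPM in WT libraries, and each of the 12 genes was higher in every KO library than in every WT library.

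Inhibitory receptors raise the threshold for activation of myeloid cells. Most carry in their cytoplasmic tail a tyrosine motif, the ITIM, which Src family kinases such as Fgr and Lyn phosphorylate and which then holds the phosphatases SHP-1 (Ptpn6) and SHP-2 (Ptpn11) or the lipid phosphatase SHIP1 (Inpp5d). Siglecs read sialic acid on glycans, Pirb and Lilrb4a belong to the immunoglobulin-like leukocyte receptors, Sirpa reads the "do not eat me" protein Cd47, the Cd300 receptors bind membrane lipids, and Clec12a is a C-type lectin. Many have an activating partner with a near-identical ectodomain that signals through Tyrobp (DAP12) or Fcer1g.

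The start-site regions of 5 receptors are shown because PU.1 and C/EBP factors, which drive many myeloid genes, bind such regions, and because these receptors differ in how they varied between the groups. Each is the 250 bases before the RefSeq start on GRCm38.p6, 5′ to 3′ on the gene's strand. Capitals mark GAGGAA, a PU.1 core, or TTNNGNAA, a C/EBP pattern, on either strand (GAGGAA reads TTCCTC on the other strand). They are at chr7:43660162-43660411 minus for Siglece, chr7:3720383-3720632 minus for Pirb, chr11:115133993-115134242 minus for Cd300lf, chr7:43533172-43533421 minus for Cd33 and chr6:129349994-129350243 plus for Clec12a.
Siglece: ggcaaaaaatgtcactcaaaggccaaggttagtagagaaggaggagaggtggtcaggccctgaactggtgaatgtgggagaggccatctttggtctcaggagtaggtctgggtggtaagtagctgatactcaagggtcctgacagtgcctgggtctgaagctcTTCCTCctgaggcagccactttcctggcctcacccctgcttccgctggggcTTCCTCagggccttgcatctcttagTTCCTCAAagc
Pirb: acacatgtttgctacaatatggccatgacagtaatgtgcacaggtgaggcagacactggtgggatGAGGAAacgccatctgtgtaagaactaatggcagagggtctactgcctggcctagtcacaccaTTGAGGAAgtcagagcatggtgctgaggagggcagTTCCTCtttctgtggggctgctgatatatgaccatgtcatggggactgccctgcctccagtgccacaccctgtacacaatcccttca
Cd300lf: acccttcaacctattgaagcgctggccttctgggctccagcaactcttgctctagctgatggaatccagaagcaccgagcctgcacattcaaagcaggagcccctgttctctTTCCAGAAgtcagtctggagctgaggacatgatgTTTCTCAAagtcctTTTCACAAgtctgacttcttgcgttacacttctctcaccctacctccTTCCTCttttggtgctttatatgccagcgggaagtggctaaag
Cd33: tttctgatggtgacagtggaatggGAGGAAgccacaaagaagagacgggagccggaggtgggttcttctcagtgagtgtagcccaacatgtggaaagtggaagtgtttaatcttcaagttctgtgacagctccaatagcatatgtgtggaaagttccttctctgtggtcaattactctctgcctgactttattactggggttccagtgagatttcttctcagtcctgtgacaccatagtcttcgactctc
Clec12a: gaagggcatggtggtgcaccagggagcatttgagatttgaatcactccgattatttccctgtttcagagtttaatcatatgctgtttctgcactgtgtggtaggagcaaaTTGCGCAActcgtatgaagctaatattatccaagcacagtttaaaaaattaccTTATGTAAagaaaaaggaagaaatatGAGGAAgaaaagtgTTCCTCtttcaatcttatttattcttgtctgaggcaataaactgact

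Of the 10 receptors, 8 had a window in the RefSeq table, with 9 windows in all since Siglecg had 2 starts. GAGGAA was found in 7 of the 9 windows, and 23.3% of all 32851 promoter windows of the same length held it. TTNNGNAA was found in 6 of the 9, against 36.8% of all windows. Siglece had 3 GAGGAA matches within 87 bases of its start, and the one nearest the start overlapped its TTNNGNAA match. Pirb also had 3, of which 1 lay inside its TTNNGNAA match. Clec12a, with a mean of 744 CPM in KO libraries and 758 CPM in WT libraries, had 2 matches of GAGGAA and 2 places matching TTNNGNAA, 1 of them the palindrome TTGCGCAA. A match describes letters and does not show that a factor binds there.

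In the fit across all genes, 15963 were tested with edgeR's quasi-likelihood test, and 870 (5.45%) passed an adjusted p of 0.05 as higher in KO libraries and 498 (3.12%) as lower. Of the 10 receptors, 9 had enough counts to be tested: 5 were called higher (Siglece, Pirb, Lilrb4a, Sirpa and Cd300lf), 0 lower and 4 neither. At an unadjusted p under 0.05, 8 were higher and 0 lower, beside 14.5% and 12.4% of all genes tested. DESeq2 called 6 higher and 0 lower, beside 9.75% and 6.58% of all genes, and limma-voom 5 and 0, beside 5.32% and 2.92%. The median log2 fold change of the 9 was 0.88, beside -0.01 over all genes tested. In 6 of the 9 every KO library lay above every WT library, as did 17.2% of all genes tested. In bulk RNA, more cells of a type and more RNA per cell cannot be told apart.

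**Figure D1:**
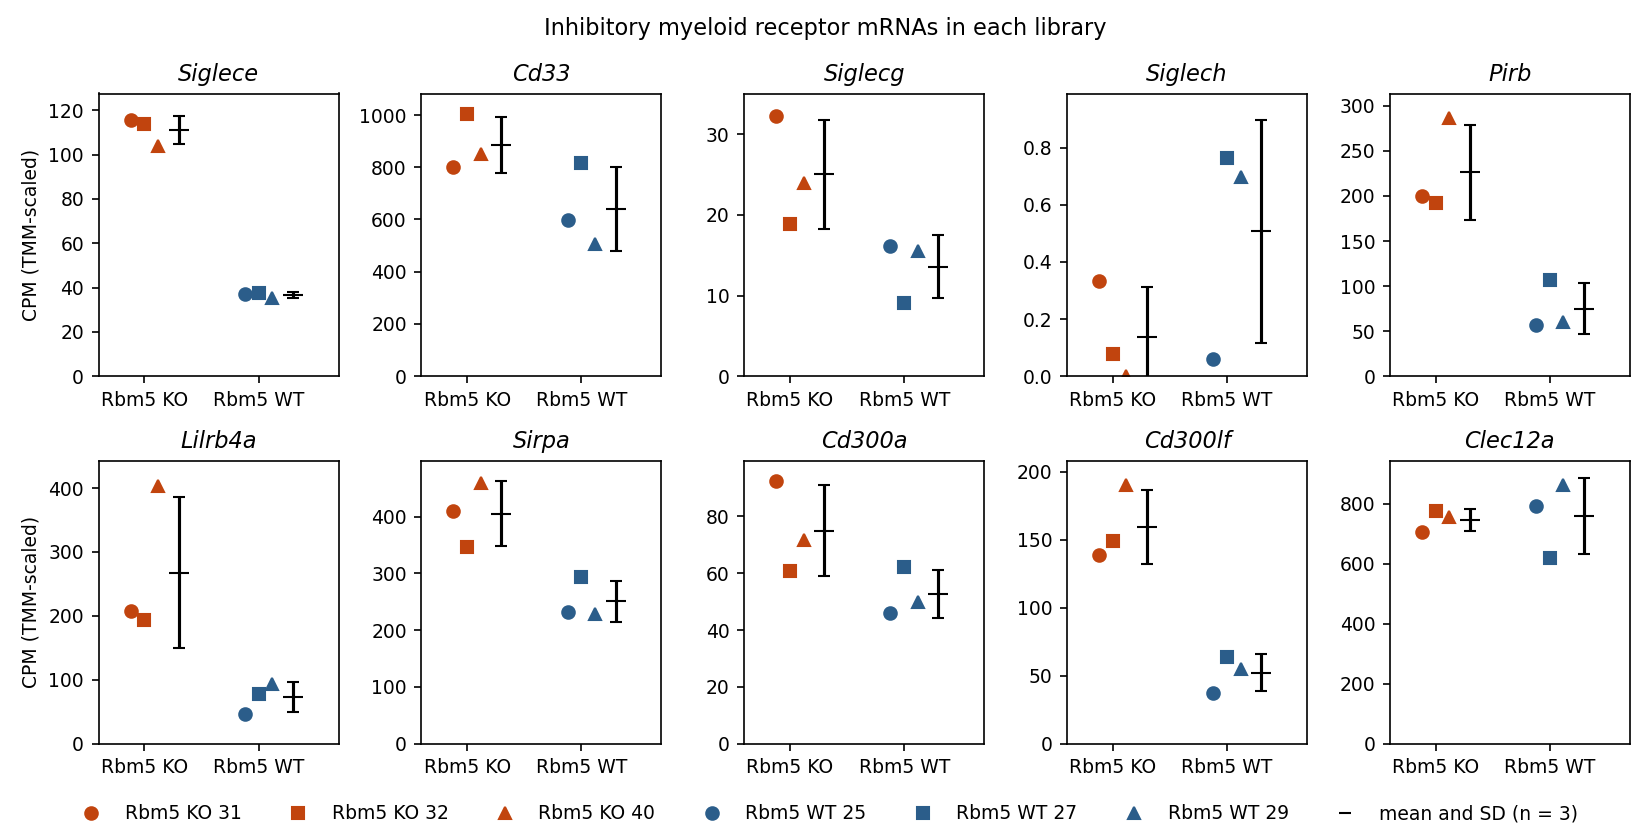
Each panel plots 1 receptor in TMM-scaled CPM, with a point for each of the 3 Rbm5 KO and 3 Rbm5 WT libraries and a bar for the mean and SD of each group. Siglece stands at 104 to 116 CPM in KO libraries and 35.2 to 37.7 CPM in WT libraries, while the groups overlap for Cd33, Siglech, Cd300a and Clec12a.

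Siglece (ENSMUSG00000030474), the mouse CD33-related Siglec of neutrophils, monocytes and macrophages, had 116, 114 and 104 CPM in KO libraries 31, 32 and 40, against 37.0, 37.7 and 35.2 CPM in WT libraries 25, 27 and 29. The groups were far apart and each was tight. The mean was 111 ± 6.33 CPM in KO libraries and 36.7 ± 1.29 CPM in WT libraries (SD, n = 3 each). The fold was 3.03, or 1.60 ± 0.09 on the log2 scale (SE, 95% interval 1.39 to 1.81), with an edgeR adjusted p of 2.71e-04. Its SD was 5.70% of the mean in KO libraries and 3.52% in WT libraries, the smallest of the 10 receptors in WT libraries. No library decided the value: with each left out in turn, the adjusted p was at most 0.00272.

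Cd33 (ENSMUSG00000004609), whose human counterpart is a target of antibody therapy in acute myeloid leukemia, had 801, 1005 and 851 CPM in KO libraries, against 599, 816 and 505 CPM in WT libraries. WT library 27 lay above KO library 31, so the groups overlapped. The mean was 885 ± 106 CPM in KO libraries and 640.2 ± 159.6 CPM in WT libraries (SD, n = 3 each). On the log2 scale the difference was 0.47 (95% interval 0.05 to 0.88), and the edgeR adjusted p of 0.146 missed the threshold.

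Siglecg (ENSMUSG00000030468), best known on B cells, had 32.2, 18.8 and 24.0 CPM in KO libraries, against 16.1, 9.06 and 15.5 CPM in WT libraries. The lowest KO library lay just above the highest WT library. The log2 fold change was 0.88 (95% interval 0.25 to 1.51) with an edgeR adjusted p of 0.0851, and DESeq2 gave an adjusted p of 0.0168. Summed B cell markers were 9.94 to 31.5 CPM in KO libraries and 11.8 to 30.6 CPM in WT libraries, with Ms4a1, Pax5 and Ebf1 under 1 CPM throughout. Without Cd79b, the most abundant, the other 7 summed to 2.94 to 9.48 CPM in KO libraries and 2.92 to 4.32 CPM in WT libraries. Of 3 tested, edgeR called 0 higher and 1 lower, beside 5.45% and 3.12% of all genes tested. Siglecg was highest in KO library 31, in which all 8 markers summed to 10.7 CPM, and to 2.94 CPM without Cd79b. The part of B cells in the Siglecg values was not tested.

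Siglech (ENSMUSG00000051504), a marker of mouse plasmacytoid dendritic cells that lacks an ITIM of its own and signals through Tyrobp, was nearly absent. It had 9, 2 and 0 counts in KO libraries, against 2, 22 and 22 in WT libraries, and was not tested. A count of 0 in KO library 40 allows up to 0.123 CPM, from 3 counts and counting error only. WT libraries 27 and 29 stood apart from the other 4 libraries, WT library 25 included. The edgeR fits that kept the gene gave adjusted p-values of 0.203 to 0.602. Of the 10 plasmacytoid dendritic cell markers, 5 were under 1 CPM in every library (Ccr9, Cox6a2, Klk1, Ly6d and Pacsin1). Others were not, and the 10 summed to 425 to 449 CPM in KO libraries and 333 to 463 CPM in WT libraries. Without Irf8, the most abundant, the sums were 158 to 176 CPM in KO libraries and 183 to 221 CPM in WT libraries. Of 5 tested, edgeR called 0 higher and 1 lower, beside 5.45% and 3.12% of all genes tested.

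Siglecg, Cd33 and Siglece lie within 309 kb on chromosome 7, from 43000765 to 43309585 with Siglecf at the other end, in the deposited table's coordinates (build not named). These do not match the GRCm38.p6 positions of the start-site windows, where that of Siglece runs from 43660162 to 43660411. Of 25 genes there, 16 were tested and edgeR called 1 higher, Siglece, and 0 lower, beside 5.45% and 3.12% of all genes tested. At an unadjusted p under 0.05 there were 5 higher and 1 lower, where the shares of all genes were 14.5% and 12.4%. DESeq2 called 4 higher and 0 lower, beside 9.75% and 6.58% of all genes, and limma-voom 1 and 0, beside 5.32% and 2.92%. Siglecf, an eosinophil receptor, had a log2 fold change of -0.22 with an edgeR adjusted p of 0.728.

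Pirb (ENSMUSG00000058818), which binds MHC class I, Nogo (Rtn4) and angiopoietin-like proteins, had 200.4, 192 and 287 CPM in KO libraries, against 57.3, 107 and 60.3 CPM in WT libraries. KO library 40 and WT library 27 were high within their groups, and the groups did not overlap. The mean was 226 ± 52.5 CPM in KO libraries and 74.9 ± 28.0 CPM in WT libraries (SD, n = 3 each). The fold was 3.02, or 1.60 ± 0.29 on the log2 scale (SE, 95% interval 0.91 to 2.28), with an edgeR adjusted p of 0.0249. The adjusted p was 0.0631 without KO library 31, 0.0772 without KO library 40, 0.0628 without WT library 25, 0.0708 without WT library 29, and 0.0917 without the filter on low counts.

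Lilrb4a (ENSMUSG00000112148), the mouse gp49B receptor whose human relative LILRB4 marks monocytic leukemias, had 207, 193 and 403 CPM in KO libraries, against 47.0, 77.9 and 93.7 CPM in WT libraries. KO library 40 had about as much as the other 2 KO libraries together, yet every KO library lay above every WT library. The mean was 268 ± 118 CPM in KO libraries and 72.8 ± 23.8 CPM in WT libraries (SD, n = 3 each). The log2 fold change was 1.88 ± 0.39 (SE, 95% interval 0.94 to 2.82), with an edgeR adjusted p of 0.0405. It passed in 1 of the 6 fits that left out a library, the one without KO library 32. The others gave 0.0762 without KO library 31, 0.0669 without KO library 40, 0.0848 without WT library 25, 0.105 without WT library 27 and 0.0666 without WT library 29. Without the filter on low counts the edgeR adjusted p was 0.126. Its whole span overlaps Gm49339 on the same strand, with 0 counts in both groups. On the opposite strand it overlaps the lncRNA Gm40645, with 41 counts over the KO libraries and 13 over the WT libraries.

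Sirpa (ENSMUSG00000037902), the receptor for Cd47, had 410.3, 346 and 459 CPM in KO libraries, against 232, 293 and 228 CPM in WT libraries. The groups did not overlap, with KO library 32 and WT library 27 the nearest to each other. The mean was 405 ± 56.9 CPM in KO libraries and 251 ± 36.2 CPM in WT libraries (SD, n = 3 each). That is a log2 fold change of 0.69 ± 0.14 (SE, 95% interval 0.36 to 1.02), with an edgeR adjusted p of 0.0278. It missed the threshold without KO library 31 (0.0714), KO library 40 (0.0940), WT library 25 (0.0757) or WT library 29 (0.0742).

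Cd300lf (ENSMUSG00000047798), a receptor for phosphatidylserine and ceramide that also serves as the murine norovirus receptor, had 139, 149 and 190.4 CPM in KO libraries, against 37.3, 63.8 and 55.2 CPM in WT libraries. The lowest KO library had more than 2 times the highest WT library. The mean was 159.5 ± 27.3 CPM in KO libraries and 52.1 ± 13.5 CPM in WT libraries (SD, n = 3 each). The log2 fold change was 1.61 ± 0.21 (SE, 95% interval 1.12 to 2.11), with an edgeR adjusted p of 0.00900, and at most 0.0314 with a library left out. The whole gene lies within the span of Rab37 on the opposite strand, and Rab37 had 1001 counts over the KO libraries and 1317 over the WT libraries.

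Cd300a (ENSMUSG00000034652), which binds phosphatidylserine and phosphatidylethanolamine, had 92.3, 60.9 and 71.7 CPM in KO libraries, against 46.1, 62.2 and 49.9 CPM in WT libraries. WT library 27 lay above KO library 32, so the groups overlapped. This gave a log2 fold change of 0.51 (95% interval 0.11 to 0.91), with an edgeR adjusted p of 0.111. Both genes are on chromosome 11, where the Cd300 family is clustered.

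Clec12a (ENSMUSG00000053063), a sensor of uric acid crystals whose human counterpart CLL-1 marks leukemic stem cells, had 704, 774 and 755 CPM in KO libraries, against 792, 619.5 and 863 CPM in WT libraries. The KO libraries lay inside the range of the WT libraries. The mean was 744 ± 36.0 CPM in KO libraries and 758 ± 125 CPM in WT libraries (SD, n = 3 each). The log2 fold change was -0.03 (95% interval -0.33 to 0.28), with an edgeR adjusted p of 0.922, and it turned slightly positive in the fits without KO library 31 (0.0096), WT library 25 (0.0016) or WT library 29 (0.076). It lies on chromosome 6, where the median of 390 genes was 0.36 higher on the log2 scale in WT libraries 27 and 29 than in the other 4 libraries; for Clec12a that difference was -0.05.

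**Figure D2:**
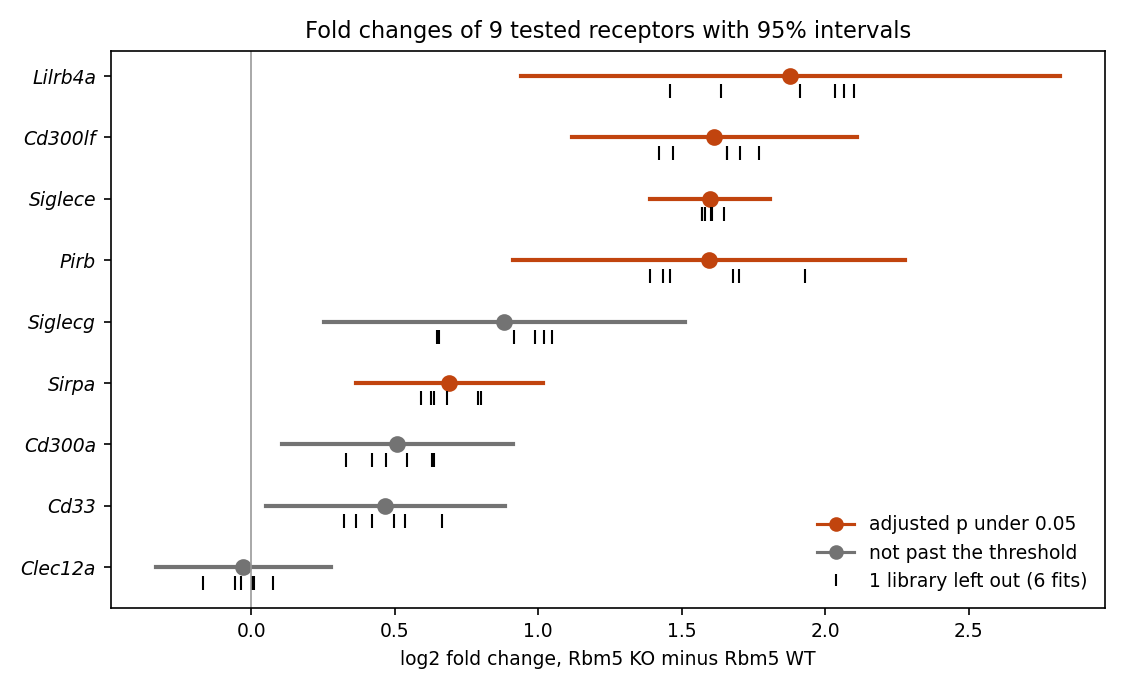
Points give the log2 fold change, Rbm5 KO minus Rbm5 WT, of the 9 tested receptors with 95% intervals, and the ticks under each give the 6 fits that left out 1 library. Siglece has the narrowest interval (1.39 to 1.81), Lilrb4a the widest (0.94 to 2.82), and Clec12a lies at -0.03.

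Per kilobase of gene, levels can be set beside each other. In KO libraries Clec12a was at 135 and Cd33 at 114 CPM per kb, followed by Sirpa at 82.5, Siglece at 60.1, Lilrb4a at 51.2, Pirb at 50.6, Cd300lf at 31, Cd300a at 15.8 and Siglecg at 5.21, with Siglech last at 0.0405. Among the KO libraries the ranges of Clec12a and Cd33, of Siglece and Pirb, and of Lilrb4a with each of Sirpa, Siglece, Pirb and Cd300lf overlapped, so the order within those pairs is not resolved. In WT libraries the order was Clec12a at 137, Cd33 at 82.4, Sirpa at 51.1, Siglece at 19.8, Pirb at 16.8, Lilrb4a at 13.9, Cd300a at 11.1, Cd300lf at 10.1, Siglecg at 2.82 and Siglech at 0.15 CPM per kb. There each neighbour from Siglece down to Cd300lf overlapped the next, as did Pirb with Cd300a and Lilrb4a with Cd300lf. Clec12a, Cd33 and Sirpa had the 3 highest means in both groups.

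**Figure D3:**
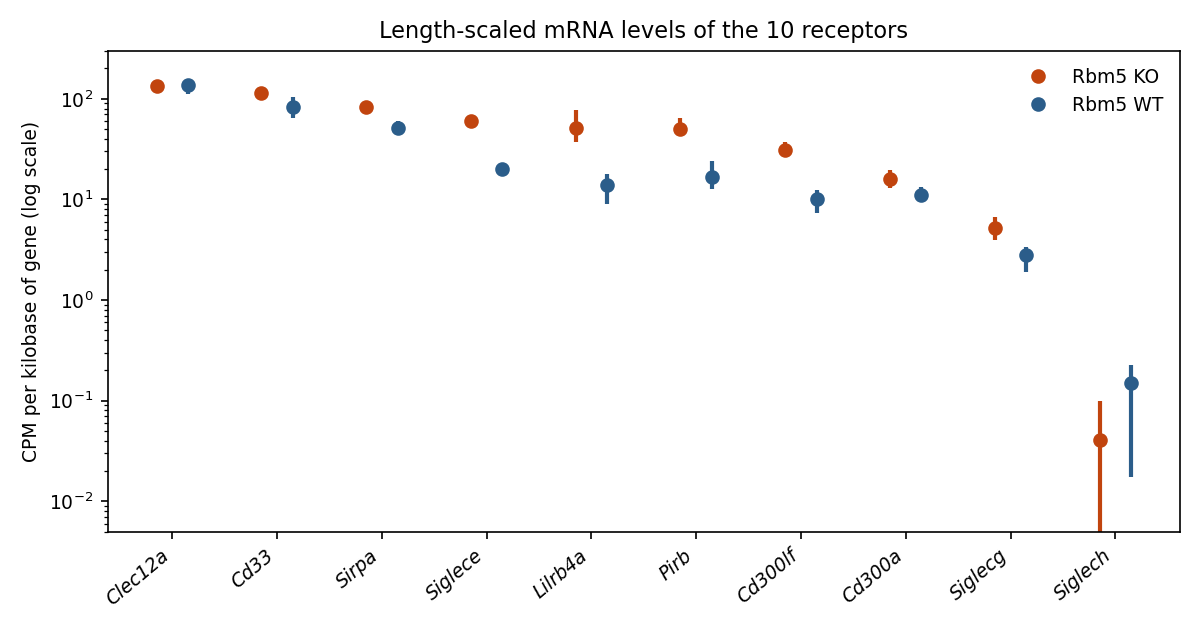
Points give the mean and lines the range of 3 libraries in TMM-scaled CPM per kilobase of gene on a log axis, Rbm5 KO left of Rbm5 WT, for the 10 receptors. Clec12a is at 135 in KO libraries and 137 in WT libraries, and Siglech at 0.0405 in KO libraries, whose lowest value of 0 lies off the log axis, and 0.15 in WT libraries.

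Within a group, the receptors did not vary alike. KO library 40 was the highest KO library in 4 of the 9 tested (Pirb, Lilrb4a, Sirpa and Cd300lf), and it also had the highest sum of neutrophil markers, 15495 CPM. Siglece was lowest in that library. KO library 32 was the lowest KO library in 5, and its neutrophil marker sum was the lowest, at 8548 CPM. Among the WT libraries, number 27 was highest in 6 of the 9, while number 29 had the highest neutrophil marker sum, 2253 CPM. The SD of Lilrb4a was 44.0% of its mean in KO libraries and 32.6% in WT libraries, and that of Clec12a was 4.84% in KO libraries and 16.5% in WT libraries.

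**Figure D4:**
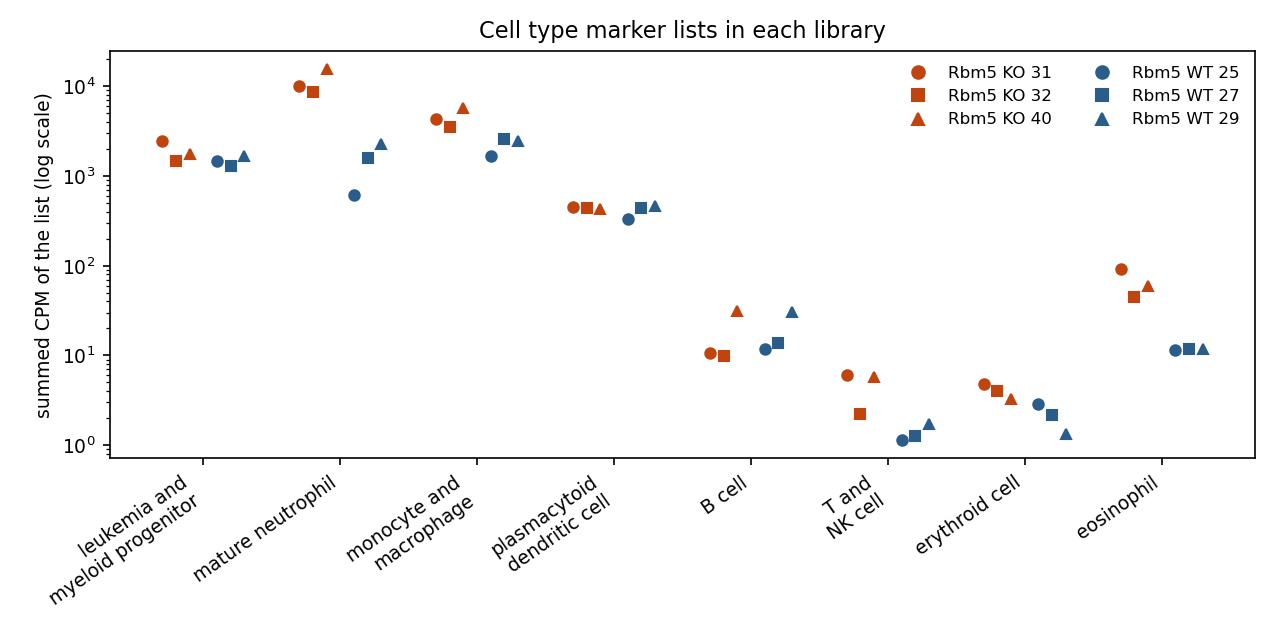
Each point is the summed TMM-scaled CPM, on a log axis, of a list of cell type markers in 1 of the 6 libraries, with Rbm5 KO left of Rbm5 WT. Neutrophil markers stand at 8548 to 15495 CPM in KO libraries and 608 to 2253 CPM in WT libraries. Monocyte and macrophage markers stand at 3543 to 5678 CPM in KO libraries and 1679 to 2599 CPM in WT libraries. Without Lyz2 the latter overlap (1564 to 1899 CPM in KO libraries and 1271 to 1860 CPM in WT libraries). That sum includes the abundant Ly6c2, whose log2 fold change was -0.30.

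Several of these receptors are carried by mature neutrophils and monocytes, so the marker lists are given beside them. Of the 12 neutrophil markers edgeR called 8 higher and 0 lower (12 and 0 at an unadjusted p under 0.05, 11 and 0 with DESeq2, 10 and 0 with limma-voom), with a median log2 fold change of 3.15. Over all genes tested, edgeR called 5.45% higher and 3.12% lower, with 14.5% and 12.4% at an unadjusted p under 0.05. DESeq2 called 9.75% and 6.58% of all genes, and limma-voom 5.32% and 2.92%. Monocyte and macrophage markers summed to 3543 to 5678 CPM in KO libraries and 1679 to 2599 CPM in WT libraries. In 5 of those 12 every KO library lay above every WT library, and Fcgr1 was under 1 CPM throughout. EdgeR called 3 of them higher and 0 lower (7 and 0 at an unadjusted p under 0.05, 6 and 0 with DESeq2, 2 and 0 with limma-voom). The log2 fold change was above 0 in 11 and below 0 in 1, Ly6c2 (-0.30). Lyz2, the most abundant of the list, was at 2416, 1979 and 3780 CPM in KO libraries, against 408, 972 and 581 CPM in WT libraries. The other 11 genes summed to 1564 to 1899 CPM in KO libraries and 1271 to 1860 CPM in WT libraries, which overlap. Among those 11, Ly6c2 was at 719 to 822 CPM in KO libraries and 634 to 1168 CPM in WT libraries. It makes up much of that sum, so the overlap does not show that the other genes were level. Csf1r was at 225 to 316 CPM in KO libraries and 104 to 166 CPM in WT libraries, and was called higher (log2 fold change 1.09, edgeR adjusted p = 0.0214). Eosinophil markers summed to 45.4 to 93.1 CPM in KO libraries and 11.6 to 11.8 CPM in WT libraries, with Ccr3, Ear1 and Il5ra under 1 CPM. T and NK cell markers summed to 2.22 to 6.03 CPM in KO libraries and 1.15 to 1.71 CPM in WT libraries. Erythroid markers summed to 3.31 to 4.83 CPM in KO libraries and 1.33 to 2.91 CPM in WT libraries. The part of these cell types in the receptor differences was not tested.

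Pirb, Lilrb4a and Sirpa each have near-identical relatives, between which reads can be split. The 5 Pira-type genes together had 63.5% to 79.2% of the Pirb counts in KO libraries and 75.3% to 103% in WT libraries. Lilrb4b, the ITIM-less neighbour of Lilrb4a, had 63.1% to 94.2% in KO libraries and 60.3% to 84.0% in WT libraries. The 3 Sirpb1 genes had 5.96% to 12.8% of the Sirpa counts in KO libraries and 3.27% to 6.81% in WT libraries. The relatives were thus of the same order as the receptor for Pirb and Lilrb4a, and minor for Sirpa. The counts of each family were then summed, and the Pirb sum also took in Pira2-ps1 and Pira2-ps2. With these sums the log2 fold change was 1.43 for Pirb (edgeR adjusted p = 0.0248), 1.95 for Lilrb4a (adjusted p = 0.0483) and 0.76 for Sirpa (adjusted p = 0.0264).

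The activating counterparts are 32 genes listed by role, with earlier results of these data known. Of 27 tested, edgeR called 11 higher and 0 lower (20 and 0 at an unadjusted p under 0.05, 18 and 0 with DESeq2, 11 and 0 with limma-voom). Over all genes tested the shares were 5.45% and 3.12% (14.5% and 12.4%, 9.75% and 6.58%, 5.32% and 2.92% in the same order). All 27 had a log2 fold change above 0, with a median of 1.17, as did 7796 of the 15963 genes tested. Pilrb1 and Pilrb2, Tyrobp-coupled partners of the inhibitory Pilra, rose by 1.31 ± 0.22 and 1.17 ± 0.20 on the log2 scale (SE, edgeR adjusted p = 0.0164 and 0.0180). Clec5a, a Tyrobp-coupled lectin of neutrophils and monocytes, had 49.8, 23.5 and 39.8 CPM in KO libraries, against 6.29, 8.61 and 14.1 CPM in WT libraries, a rise of 1.96 ± 0.38 (adjusted p = 0.0290). Pira1 rose by 1.42 ± 0.30 (adjusted p = 0.0298), Lilra6 by 1.39 ± 0.32 (0.0457), Pira2 by 1.18 ± 0.25 (0.0317) and Pira12 by 1.16 ± 0.24 (0.0310), all in edgeR. Values not past the threshold were 2.05 for Lilrb4b (edgeR adjusted p = 0.0640), 1.17 for Pira13 (0.0562), and 1.23, 1.39 and 1.80 for Sirpb1a, Sirpb1b and Sirpb1c (0.165, 0.0764 and 0.0797). In the Cd300 cluster, Cd300ld (0.84, edgeR adjusted p = 0.0484) and Cd300c2 (0.86, 0.0469) passed, and Cd300lb (0.80, 0.0609) and Cd300e (0.22, 0.888) did not. With a library left out, Pilrb1 passed in 5 of the 6 fits, Pilrb2 in 3, Clec5a, Pira1, Pira2, Pira12 and Lilra6 in 2 each, and Cd300ld and Cd300c2 in 1 each. The count of genes called was also moved: without KO library 31 it was 2, without KO library 40 it was 0, without WT library 25 it was 1 and without WT library 29 it was 5.

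The other inhibitory receptors of myeloid cells formed a second list. Of 18 listed, 16 were tested, 3 called higher and 0 lower by edgeR (5 and 0 at an unadjusted p under 0.05, 5 and 0 with DESeq2, 4 and 0 with limma-voom), with a median log2 fold change of 0.49. Beside them stand the shares of all genes tested, 5.45% and 3.12% with edgeR (14.5% and 12.4%, 9.75% and 6.58%, 5.32% and 2.92% in the same order). Ceacam1, an ITIM receptor that binds itself on neighbouring cells, had 306, 269 and 375 CPM in KO libraries, against 129.8, 160.3 and 128 CPM in WT libraries. That was a rise of 1.19 ± 0.15 on the log2 scale (SE, edgeR adjusted p = 0.00608). Vsir, which encodes the checkpoint protein VISTA, rose by 0.92 ± 0.15 (adjusted p = 0.0134), and both kept an adjusted p under 0.05 with any 1 library left out. Lair1, a collagen receptor, rose by 0.73 ± 0.15 (edgeR adjusted p = 0.0292). With a library left out its log2 fold change was 0.59 to 0.80, and it missed the threshold without KO library 31 (0.0640), KO library 32 (0.0638), KO library 40 (0.0699) or WT library 29 (0.0533).

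**Figure D5:**
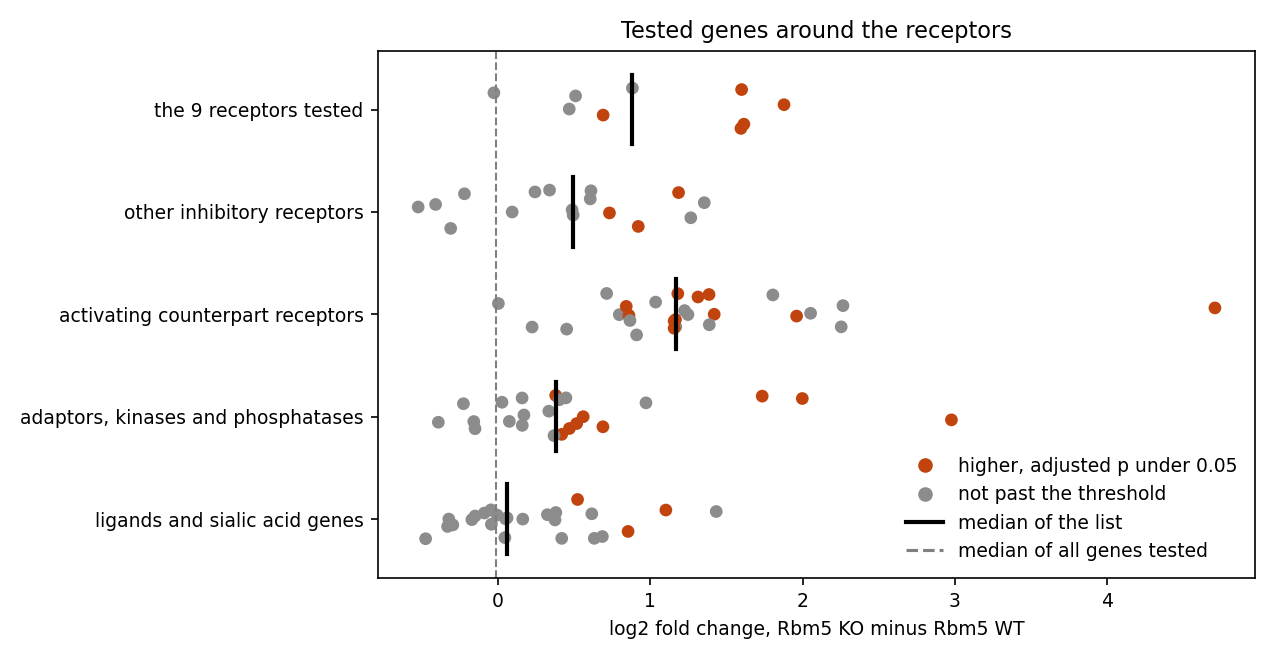
Each point is the log2 fold change, Rbm5 KO minus Rbm5 WT, of a tested gene in the receptor set or in 1 of the 4 lists around it, with a bar for the list's median and a dashed line for the median of all genes tested (-0.01). The medians are 0.88 for the 9 tested receptors, 0.49 for other inhibitory receptors, 1.17 for activating counterparts, 0.38 for adaptors, kinases and phosphatases and 0.06 for ligands and sialic acid genes.

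Among 23 adaptors, kinases and phosphatases, all tested, edgeR called 9 higher and 0 lower (13 and 1 at an unadjusted p under 0.05, 13 and 0 with DESeq2, 9 and 0 with limma-voom), with a median log2 fold change of 0.38. Of all genes tested, 5.45% and 3.12% were called by edgeR (14.5% and 12.4%, 9.75% and 6.58%, 5.32% and 2.92% in the same order). The Src family kinase Fgr had 143, 112 and 187 CPM in KO libraries, against 32.5, 44.2 and 33.9 CPM in WT libraries, a rise of 2.00 ± 0.21 on the log2 scale (SE, edgeR adjusted p = 0.00456). The groups did not overlap, and Fgr passed with any 1 library left out. The adaptors Tyrobp and Fcer1g rose by 0.69 ± 0.12 (edgeR adjusted p = 0.0180) and 0.52 ± 0.11 (0.0325). Tyrobp missed the threshold without WT library 25 (0.0502) or 27 (0.0550), and Fcer1g passed in only 1 of the 6 fits that left out a library, the one without KO library 32. The phosphatases that ITIMs hold, singled out after their values were seen, had log2 fold changes of 0.16 for Ptpn6 (edgeR adjusted p = 0.611), 0.17 for Ptpn11 (0.251) and 0.03 for Inpp5d (0.909). Ptpn6 lies on chromosome 6 and was 0.15 higher on the log2 scale in WT libraries 27 and 29 than in the other 4 libraries. The count was 7 without KO library 32 and 3 without any other single library, KO libraries 31 and 40 and WT libraries 25, 27 and 29 alike.

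Ligands of the receptors and enzymes of sialic acid formed the last list. Of 26 listed, 25 were tested, and edgeR called 3 higher and 0 lower (7 and 1 at an unadjusted p under 0.05, 4 and 1 with DESeq2, 3 and 0 with limma-voom), with a median log2 fold change of 0.06. EdgeR called 5.45% and 3.12% of all genes tested (14.5% and 12.4%, 9.75% and 6.58%, 5.32% and 2.92% in the same order). Cd52, a glycoprotein whose soluble form binds SIGLEC10 in humans, had 225, 179 and 235 CPM in KO libraries, against 89.0, 95 and 114 CPM in WT libraries, a rise of 1.10 ± 0.14 on the log2 scale (SE, edgeR adjusted p = 0.00608). St3gal1, which adds sialic acid to O-glycans, rose by 0.85 ± 0.15 (adjusted p = 0.0185), and Neu1, the lysosomal sialidase, by 0.52 ± 0.11 (0.0292). Cd52 passed with any 1 library left out, St3gal1 missed without KO library 31 (0.0573), KO library 40 (0.0625) or WT library 25 (0.0517), and Neu1 passed only without KO library 32 (0.0246). Cd47, the Sirpa ligand, singled out after its value was seen, had a log2 fold change of 0.05 (edgeR adjusted p = 0.785). The count was 1 without KO library 31, without KO library 40 or without WT library 25.

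The genes whose pattern over the 6 libraries was most like that of the 3 most abundant receptors were sought among 11328 protein-coding genes by Pearson's r of log2 CPM, as a description. For Cd33 they were Smad4 (r = 0.990), Map3k1 (0.990) and Slc33a1 (0.988). For Clec12a they were Bbs9 (0.991), Cep20 (0.983) and Psmd4 (0.967), and for Sirpa Slc37a1, Msn (both 0.998) and Stat6 (0.997). These genes were picked for a high r over only 6 libraries, which share the difference between the groups.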

How the data were processed

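RNA was extracted with TRIzol and sequenced by a company, per the labels' protocols. The authors deposited whole-number counts per gene, not normalized, for 6 libraries. Salmon, limma, GRCm38 and mm10 are named without a role, per the submitters' processing notes. The sources used here do not say whether the counts are rounded estimates, how strand was used or which build the table's coordinates follow. The table's position of Siglece did not match that of its GRCm38.p6 promoter window.

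Groups came from the sample titles. No pair of libraries agreed within sampling noise (lowest chi-square per degree of freedom 39.3). Genes were kept by edgeR's filterByExpr defaults (minimum count 10, minimum total 15), scaled by TMM and tested with the robust quasi-likelihood test (R 4.3.3, edgeR 4.0.16), KO against WT without covariates. P-values were adjusted by Benjamini-Hochberg over 15963 genes, with a threshold of 0.05. Each SE was the log2 fold change divided by the root of F, and 95% intervals used the t distribution. Intervals cover the spread between these libraries.

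The 10 receptors and the 4 lists around them were chosen with earlier results of these data known. All receptors were named, and of each list up to 4 called genes with the smallest p, near-identical relatives whatever their values; 1 gene that this rule names is not reported here. Of 170 listed genes 168 were found (not Pira6 or Pira7); Lilr4b and Cd300lh were matched as Lilrb4b and Cd300ld3. Promoter windows are RefSeq's, on GRCm38.p6. Alternatives were RLE and upper-quartile factors, total counts, factors from genes off chromosomes 6, X and Y, no filter, at least 1 CPM in 3 libraries, no robust shrinkage, each library left out, WT libraries 27 and 29 left out, DESeq2 1.42.0 and limma-voom 3.58.1; summing near-identical relatives, and marker sums without the most abundant gene of a list, were added after the data were seen.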

Additional observations from a re-analysis of the deposited data

How the results depend on the processing

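Siglece and Cd300lf were called higher in all 16 alternatives run, with adjusted p-values of at most 0.00755 and 0.0314. Receptors called higher numbered 3 without the count filter and 3 without WT libraries 27 and 29, and 2 to 5 with 1 library left out. Over all genes, DESeq2 called 1557 higher and 1050 lower, no filter gave 836 lower, and leaving out WT libraries 27 and 29 gave 305 higher and 148 lower. With 1 library left out, 245 to 787 genes were called higher and 102 to 440 lower. DESeq2 called 5 other inhibitory receptors and 18 activating counterparts higher, and 1 ligand gene lower. Without WT libraries 27 and 29, 5 activating counterparts, 3 adaptors and 1 ligand gene were called higher, and 1 other inhibitory receptor lower. Total counts alone gave 3 adaptors. Leaving out 1 library gave 2 to 3 other inhibitory receptors, 0 to 12 activating counterparts, 3 to 7 adaptors and 1 to 3 ligand genes. The log2 fold change of Clec12a ran from -0.169 to 0.0760 in those fits. The cause of these shifts was not tested. Total counts moved the median of all genes by -0.124 on the log2 scale; relative to it, Siglece was at 1.60, Pirb 1.58, Lilrb4a 1.87, Sirpa 0.68 and Cd300lf 1.61. No paired analysis was possible because the groups share no replicate numbers. With 3 libraries a group, the width of the intervals, 1.39 to 1.81 for Siglece and 0.94 to 2.82 for Lilrb4a, sets what could be resolved.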
